A study of Arabidopsis thaliana with 12 samples.

Results

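The genes described here are those whose transcripts were at least 4-fold higher in callus than in the explant it grew from, on average, in each of 3 organs of Arabidopsis thaliana. The members were chosen by these measured ratios: a gene was taken if its mean log2 ratio of callus over explant was 2 or more in root, in cotyledon and in petal. Of 13746 genes on the array, 9695 were measured on 3 or more of the 4 arrays of every organ, and 87 of these (0.897%) met the rule. Of the 87, 6 were set aside by name, BBM, GH3.3, IAA30, IQD15, EEL and ATLP-1, and the remaining 81 are the members.

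All tissue came from plants of the Ler ecotype. Explants of root, cotyledon or petal were either taken at excision (day 0) or cultured on a callus-inducing medium rich in auxin for 10 days. Each of the 12 oligonucleotide arrays carried callus RNA in 1 dye and RNA of the day-0 explant of the same organ in the other, with 4 biologically independent replicates per organ. Callus RNA was in Cy5 in replicates 1 and 3 and in Cy3 in replicates 2 and 4. Explant and callus of 1 organ differ both in culture and in 10 days of time, and no explant kept for 10 days without the medium was among the arrays used here.

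The ratios are read as callus over explant. The labels make this the likely direction, since callus is channel 1 and the day-0 tissue is called the control, but they do not state it. Arrays of opposite dye within an organ correlated positively over the 9695 genes. The coefficients of root lay between 0.73 and 0.80, those of cotyledon between 0.83 and 0.88 and those of petal between 0.84 and 0.91, so the measured ratios of 1 organ run the same way. Were the table stored the other way round, every member would be lower in callus. Values stop at 100-fold in either direction, and 14% of all values, from 1.99% to 28.2% per array, were at this limit and set missing. In root the side of the limit moved with the dye: replicate 1, with callus in Cy5, had 5571 values at the upper limit and 10 at the lower, and replicate 2, with callus in Cy3, had 3 and 5357. In cotyledon, replicate 3 (Cy5) had 1481 upper and 64 lower and replicate 2 (Cy3) had 4 and 4800. However, cotyledon replicate 1 (Cy5) had 68 upper and 428 lower. Petal replicate 1 (Cy5) had 15 and 6003, and petal replicate 3 (Cy5) had 298 and 201. On every array with callus in Cy3, more values were at the lower limit than at the upper. The table holds no channel intensities, so dim probes could not be told from bright ones. The RNA came from whole tissue, so more cells of a type and more RNA per cell cannot be told apart in any ratio.

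Callus is a mass of dividing cells that a wounded or excised plant organ forms when auxin is supplied together with nutrients. Its formation is known to involve auxin signalling, genes of root development and re-entry into the cell cycle.

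The rule used the ratios of callus over explant in all 3 organs, so these ratios are given as a description and are not tested. Root set the size of the group. Only 161 genes (1.66%) had a mean of 2 or more in root, against 790 (8.15%) in cotyledon and 1282 (13.2%) in petal. The 87 genes were 54% of the root set, 11% of the cotyledon set and 6.79% of the petal set. A further 497 genes passed in cotyledon and petal and fell short in root, where their median was 0.87, whereas 28 fell short in cotyledon alone and 12 in petal alone.

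**Figure D1:**
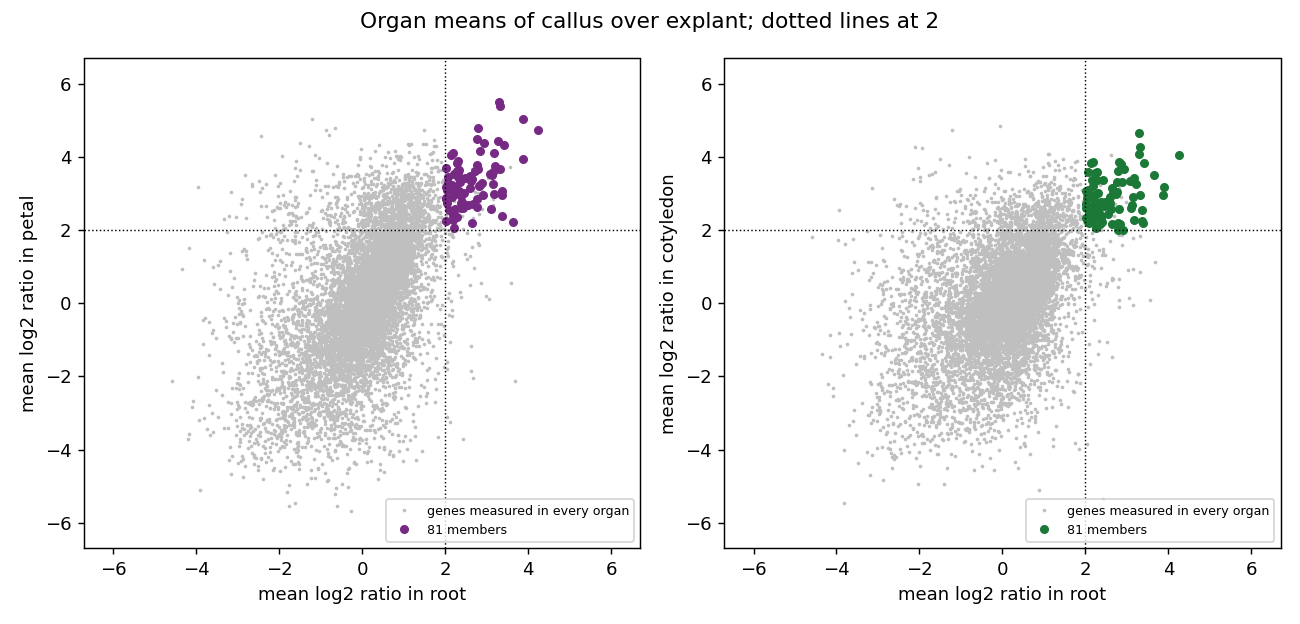
Mean log2 ratio of callus over explant in petal (left, vertical axis) and in cotyledon (right, vertical axis) against root (horizontal axis) for 9695 genes in grey and the 81 members in colour, with dotted lines at 2. The members fill the upper right corner that the rule defines, and 161 genes in all lie at or to the right of 2 in root.

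Among the members the median ratio was 2.48 in root, 2.79 in cotyledon and 3.25 in petal, or 5.58-fold, 6.9-fold and 9.51-fold. The medians over all 9695 genes were 0.18, 0.13 and 0.18. Of the 972 values that 81 genes can have on 12 arrays, 969 were measured, 89 lay below 2, 1 lay below 1 and 0 lay below 0. All measured arrays were at 2 or more for 31 members. The 3 missing values, of AT3G29970 and ZW9 on cotyledon replicate 1 and of AT3G59450 on cotyledon replicate 3, were at the upper 100-fold limit of the table. All 3 were on arrays with callus in Cy5, and whether the dye set them was not tested.

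**Figure D2:**
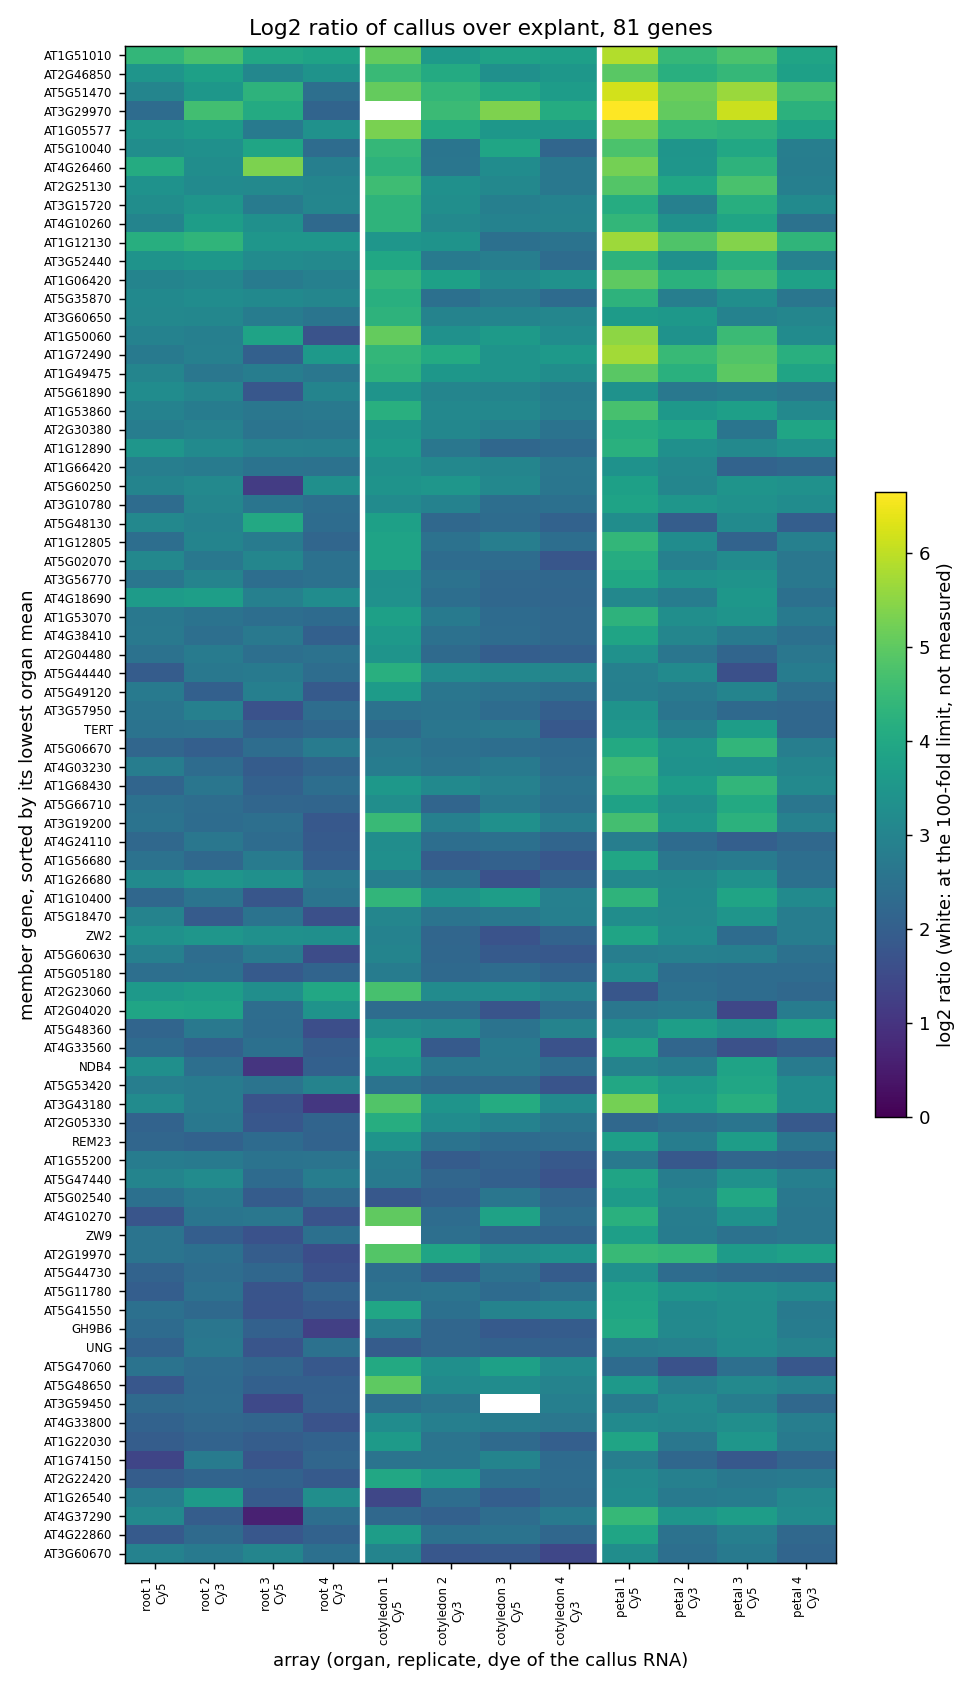
Log2 ratio of callus over explant of each of the 81 members (rows, sorted by the lowest of the 3 organ means) on each of the 12 arrays (columns, with the dye of the callus RNA). Lighter colours are higher ratios, white cells are the 3 values at the upper limit, and the columns of cotyledon replicate 1 and petal replicate 1 are the lightest of their organs.

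Of the members, 6 carry a symbol other than their locus code in the RefSeq gene table, and AT2G35310 is named by its synonym REM23, which makes 7. For naming, synonyms were searched for REM names only. The other members are known here by their locus code alone. TERT and UNG act on DNA. TERT (AT5G16850) encodes the telomerase reverse transcriptase, the catalytic subunit of the enzyme that extends chromosome ends, and its transcript is known to be scarce in mature plant organs and to return in dividing cells and callus. Its log2 ratio was 2.52, 2.55, 2.07 and 2.21 on root replicates 1 to 4, 2.30, 2.61, 2.68 and 1.82 on the cotyledon replicates, and 3.48, 2.86, 3.69 and 2.22 on the petal replicates. Root and cotyledon overlapped throughout, and the petal arrays reached higher although the lowest of them lay among the root values. The means were 2.34 ± 0.23 (SD, n = 4) in root, 2.35 ± 0.39 in cotyledon and 3.06 ± 0.66 in petal, or 5.06-fold, 5.1-fold and 8.35-fold.

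UNG (AT3G18630) encodes uracil DNA glycosylase, which removes uracil from DNA as the first step of base excision repair. Its ratios were 2.10, 2.67, 1.76 and 2.47 in root, 1.93, 2.19, 2.08 and 2.05 in cotyledon, and 2.84, 2.93, 3.23 and 2.96 in petal. Every petal array lay above every root and cotyledon array, and its SDs in cotyledon and petal were the smallest of the 81 members. The means were 2.25 ± 0.40, 2.06 ± 0.11 and 2.99 ± 0.17.

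NDB4 (AT2G20800) encodes an NAD(P)H dehydrogenase of the type that bypasses complex I in plant mitochondria. It rested on uneven root values of 3.3, 2.44, 1.02 and 2.04 for replicates 1 to 4, with a mean of 2.20 ± 0.95 (n = 4). Its cotyledon values of 3.52, 2.65, 2.69 and 2.41 and its petal values of 2.98, 2.82, 3.86 and 2.75 were all above 2. Root replicates 1 and 3 carried the callus RNA in the same dye and gave the highest and the lowest of its root values. The other 3 measured NDB genes, which have their own ratios against 0 in the same limma fit, were not raised to this extent. NDB1 (AT4G28220) rose in all 3 organs, with 0.78 ± 0.25, 1.00 ± 0.20 and 0.88 ± 0.28 in root, cotyledon and petal (limma adjusted p of 0.000449 or less). NDB2 (AT4G05020) fell in root to -0.95 ± 0.37 and rose to 0.94 ± 0.33 and 1.59 ± 0.18, and NDB3 (AT4G21490) was at 0.18 ± 0.40 and 0.51 ± 0.52 and fell to -2.13 ± 0.77 in petal.

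GH9B6 (AT1G23210) belongs to glycosyl hydrolase family 9, endoglucanases that act on cell wall glucans. Its ratios were 2.31, 2.61, 2.07 and 1.26 in root, 2.85, 2.19, 1.88 and 1.94 in cotyledon, and 4.01, 3.11, 3.29 and 2.80 in petal. Every petal array but replicate 4 was above all root and cotyledon arrays, and the means were 2.06 ± 0.58, 2.22 ± 0.44 and 3.3 ± 0.52. Of the 6 other measured GH9B genes, 1 rose and 2 fell in root, 3 rose and 1 fell in cotyledon, and 2 rose and 3 fell in petal, beside 39.9% of all genes higher and 23% lower in root, 40.7% and 30.3% in cotyledon, and 45.3% and 33.4% in petal (limma adjusted p under 0.05). The closest of them to a member was GH9B13 (AT4G02290), at 0.97 ± 0.59, 3.5 ± 1.10 and 1.99 ± 0.27. GH9B8 (AT2G32990) ran in opposite directions, at -2.10 ± 0.22 in root and 2.60 ± 0.77 in cotyledon.

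AT2G35310 has the synonym REM23, for the reproductive meristem family of plant B3-type DNA-binding proteins. Its root arrays were tight, at 2.18, 2.09, 2.32 and 2.10, and its cotyledon arrays lay at 3.43, 2.54, 2.33 and 2.38. Its petal replicates 1 and 3, where Cy5 marked the callus, gave 3.76 and 3.70, above replicates 2 and 4 of the opposite dye at 2.82 and 2.62. All 4 petal values were above all 4 root values.

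ZW2 (AT1G58330) and ZW9 (AT1G58270) share a symbol stem and lie near each other by locus code. ZW2 had the steadiest root ratio of the named members, at 3.36, 3.48, 3.33 and 3.31, with 2.94, 2.20, 1.70 and 2.12 in cotyledon and 3.89, 3.23, 2.34 and 2.82 in petal. ZW9 was at 2.55, 1.97, 1.67 and 2.45 in root, at 2.42, 2.18 and 2.13 on the 3 cotyledon arrays that measured it, and at 3.74, 2.78, 2.51 and 2.60 in petal. The petal minus root difference passed in neither (ZW2 -0.30, limma adjusted p = 0.458, and ZW9 0.75, 0.0561). The third measured gene of the stem, ZW18 (AT1G58350), was at 0.88 ± 0.46, 0.54 ± 0.31 and 0.09 ± 1.75 and passed the test in none of the organs.

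**Figure D3:**
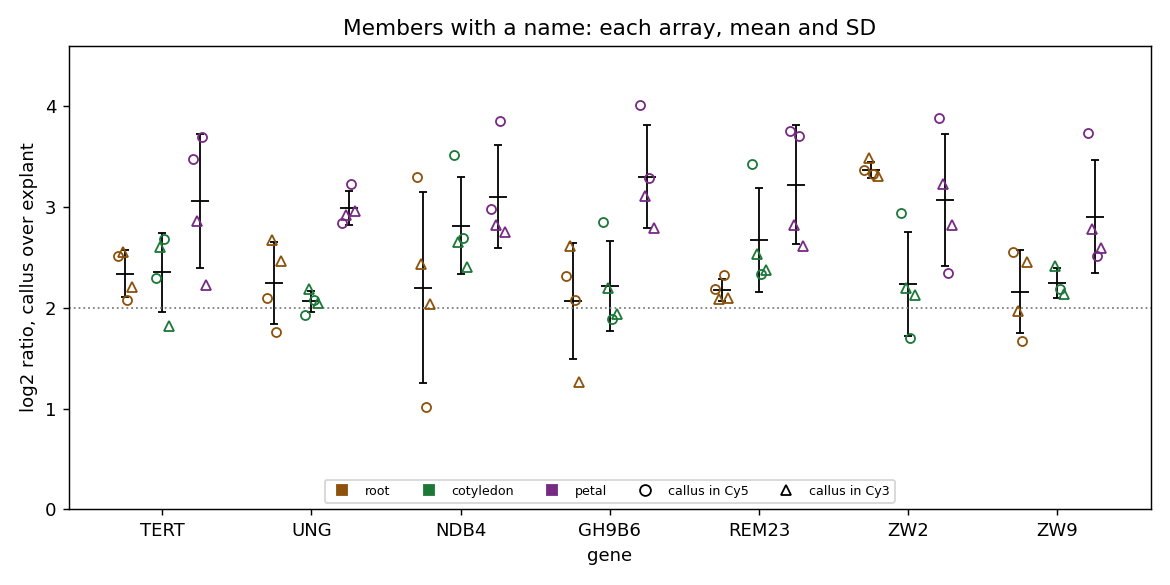
Log2 ratio of callus over explant (vertical axis) on each array for the 7 members with a name (REM23 is AT2G35310), with circles for callus in Cy5, triangles for callus in Cy3, and black bars for the mean and SD of each organ. On the measured arrays TERT, UNG, GH9B6, NDB4, REM23 and ZW9 have their highest mean in petal. ZW9 lacks cotyledon replicate 1, which was at the upper limit, and ZW2 has a root mean of 3.37 with an SD of 0.08.

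The strongest members have only a locus code as their symbol in the sources used here, and no role is given for them. Names from other sources were not looked up. Ordered by the lowest of the 3 organ means, AT1G51010 came first, and the 10 members above 3 on this measure were AT1G51010, AT2G46850, AT5G51470, AT3G29970, AT1G05577, AT5G10040, AT4G26460, AT2G25130, AT3G15720 and AT4G10260. AT1G51010, which the RefSeq table does not hold and which is named from the platform's probe table, was at 4.41, 4.73, 3.98 and 3.86 in root, 5.06, 3.58, 3.83 and 3.76 in cotyledon and 5.88, 4.42, 4.77 and 3.89 in petal. None of its 12 values fell below 3.58, and its root mean of 4.24 ± 0.40 (n = 4), or 19-fold, was the highest root mean of all 9695 genes. AT3G29970 had the highest petal mean of all genes, 5.51 ± 1.06 or 45.7-fold, from 6.62, 5.06, 6.12 and 4.26. Its root values of 2.35, 4.63, 4.05 and 2.13 had the widest SD of the members in that organ, 1.24, and did not follow the dye. Both ranks cover only the 9695 measured genes.

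AT5G51470 came next among the members in petal, at 6.19, 5.14, 5.65 and 4.62, with cotyledon values of 5.07, 4.41, 4.02 and 3.66 and root values of 3.02, 3.51, 4.29 and 2.42. Its petal arrays lay above all root arrays and overlapped with the cotyledon arrays. AT2G46850 had 3.45, 3.77, 3.06 and 3.40 in root, 4.5, 4.06, 3.33 and 3.51 in cotyledon, and 4.94, 4.19, 4.43 and 3.78 in petal. AT2G25130 had a tight root mean of 3.18 ± 0.16 and wider means of 3.42 ± 0.82 in cotyledon and 4.10 ± 0.91 in petal. AT3G15720 at 3.14 ± 0.30, 3.35 ± 0.67 and 3.59 ± 0.65 and AT4G10260 at 3.07 ± 0.60, 3.34 ± 0.66 and 3.54 ± 0.81 had organ means that lay within 0.45 and 0.47 of each other, less than the SD in cotyledon or petal. AT1G05577 ran at 3.28 ± 0.40, 4.09 ± 0.85 and 4.44 ± 0.61.

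The 81 members varied more in cotyledon and petal than in root. The median SD over the 4 arrays was 0.33 in root, 0.55 in cotyledon and 0.56 in petal, against 0.28, 0.25 and 0.35 over all 9695 genes. The spread between a member's lowest and highest organ mean had a median of 0.92. It was under 0.5 for 14 members and over 1 for 36. AT2G04480, with 2.55 in root, 2.44 in cotyledon and 2.69 in petal, had the smallest spread, 0.25. It was picked after its values were seen.

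Members at the edge of the rule were AT3G60670, at 2.77 ± 0.26, 2.01 ± 0.69 and 2.64 ± 0.47 in root, cotyledon and petal, AT4G22860, at 2.01 ± 0.23, 2.73 ± 0.66 and 2.89 ± 0.73, and AT4G37290, at 2.01 ± 1.06, 2.35 ± 0.28 and 3.70 ± 0.54. Just outside it were AT1G48510, at 1.98 ± 0.37, 3.13 ± 0.31 and 3.77 ± 0.67, AT1G29980, at 1.97 ± 0.15, 2.96 ± 0.57 and 3.69 ± 0.57, and AT3G07540, at 1.96 ± 0.22, 2.23 ± 0.34 and 2.90 ± 0.29. The lowest organ means of these 6 genes lay between 1.96 and 2.01, a gap smaller than the SD of any of them, and genes were dense around the threshold, with 34 members between 2 and 2.25 in their lowest organ and 39 genes between 1.75 and 2. With each array centred on the median of its 9695 genes, 57 of the 81 members still met the rule and 0 other genes joined them.

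The next comparison asked whether the members' ratios were of the same size in the 3 organs. Each array set callus against the explant of its own organ, so higher or lower in an organ means a higher or lower ratio there. A lower level in the explant gives the same value as a higher level in the callus, and no array compared calli with each other. The rule placed the same floor under each organ and did not choose on their differences. The floor still bounds what a difference can be, and it cuts closest in root, where fewest genes reach 2, so the lower root values of the group are in part built in. Shares of calls over all genes stand beside those of the members as background, and the selection itself can move the members' shares. Petal had the highest mean for 60 members, cotyledon for 13 and root for 8, and root had the lowest mean for 55. The order root, cotyledon, petal from low to high was the most frequent, in 43 members (53.1%, beside 24.7% of all genes). Cotyledon, root, petal followed with 17 members (21%, beside 15.3%), then root, petal, cotyledon with 12 (14.8%, beside 11.9%). The orders with root highest held for 6 members with petal in the middle (7.41%, beside 18.3%) and 2 with cotyledon in the middle (2.47%, beside 17%), and petal, root, cotyledon for 1 (1.23%, beside 12.8%). The differences were tested in the limma fit over all 9695 genes, with a dye term.

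The ratio was higher in petal than in root for 37 members and lower for 2, or 45.7% and 2.47% of the 81, beside 33.4% of all genes higher and 26.7% lower and 60.1% in either direction (limma, adjusted p under 0.05). The median difference in ratio was 0.74 among the members and 0.05 over all genes. Every petal array lay above every root array for 30 members, or 37%, against 28.7% of all genes, and every root array above every petal array for 1, against 21.8%. The largest differences that passed were those of AT3G29970 at 2.23 ± 0.62 (SE, limma adjusted p = 0.0118), AT5G51470 at 2.09 ± 0.37 (0.000738) and AT1G72490 at 2.00 ± 0.40 (0.00148). For AT1G72490 the petal values of 5.71, 4.47, 4.84 and 4.19 all stood above the root values of 2.70, 2.88, 2.04 and 3.57. AT2G19970 at 1.93 and AT3G43180 at 1.91 followed.

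UNG (0.74 ± 0.17, limma adjusted p = 0.00396), GH9B6 (1.24 ± 0.32, 0.00623) and REM23 (1.05 ± 0.24, 0.00356) were also higher in petal than in root. TERT passed at 0.72 ± 0.28 (limma adjusted p = 0.0453), but 13 of 19 other settings took it over the threshold, with adjusted p from 0.00939 to 0.134 and a difference from 0.55 to 0.96. ZW9 at 0.75 (95% interval 0.07 to 1.42) and NDB4 at 0.90 (-0.07 to 1.88) did not pass. Only AT2G23060 and AT2G04020 were lower in petal than in root. AT2G23060 had root values of 3.58, 3.69, 3.29 and 3.99 and petal values of 1.77, 2.48, 2.35 and 2.25, a difference of -1.43 ± 0.36 (limma adjusted p = 0.00585). AT2G04020 had 3.90, 3.84, 2.37 and 3.40 in root and 2.63, 2.73, 1.42 and 2.79 in petal (-0.99 ± 0.35, 0.0302), and its call was lost in 6 of 19 other settings.

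Cotyledon and root differed in 24 members, beside 53.9% of all genes. The 17 higher in cotyledon (21%, beside 27% of all genes) and the 7 lower (8.64%, beside 26.9%) are bounded by the floor of the rule. Without root replicate 4 the count of 24 fell to 15. Every cotyledon array lay above every root array for 13 members (16%, beside 25.7% of all genes) and the reverse held for 3 (3.7%, beside 25.2%). AT2G19970 had the largest difference, with cotyledon values of 4.87, 3.87, 3.28 and 3.39 against root values of 2.57, 2.44, 1.96 and 1.57 (1.72 ± 0.37, limma adjusted p = 0.00283). The cotyledon and root arrays of this gene did not overlap, and its petal values of 4.48, 4.39, 3.64 and 3.77 were close to those of cotyledon. AT3G43180 at 1.69 ± 0.44 (0.00859), AT5G48650 at 1.54 ± 0.37 (0.00497), AT5G47060 at 1.35 ± 0.16 (5.39e-05) and AT1G10400 at 1.32 ± 0.32 (0.00588) were higher in cotyledon as well.

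Higher in root than in cotyledon were AT2G04020 at -1.17 ± 0.35 (limma adjusted p = 0.0155), ZW2 at -1.13 ± 0.33 (0.0151), AT1G26680 at -0.89 ± 0.28 (0.0195), AT1G26540 at -0.88 ± 0.29 (0.0243) and AT4G18690 at -0.83 ± 0.30 (0.0385). The last 3 lost their call in 1, 6 and 11 of 19 other settings. TERT differed by 0.01 between these organs, with a 95% interval from -0.61 to 0.63, and UNG differed by -0.18 (-0.57 to 0.20).

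Petal and cotyledon differed in 20 members, 17 higher in petal (21%, beside 30.8% of all genes) and 3 lower (3.7%, beside 18.8%), with 49.5% of all genes called in either direction. Every petal array lay above every cotyledon array for 12 members (14.8%, beside 26.4% of all genes) and the reverse held for 2 (2.47%, beside 16.6%). The count rose to 31 without cotyledon replicate 1 and fell to 13 without petal replicate 1. AT1G12130 differed most, with petal values of 5.67, 4.81, 5.40 and 4.36 against cotyledon values of 3.49, 3.42, 2.46 and 2.53 (2.08 ± 0.35, limma adjusted p = 0.000765). Its root values of 4.17, 4.35, 3.5 and 3.49 lay between them. AT5G53420 had petal values of 3.99, 3.59, 3.92 and 3.22 and cotyledon values of 2.52, 2.26, 2.24 and 1.73 (1.49 ± 0.19, 0.000161).

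AT4G37290 at 1.35 ± 0.47 (limma adjusted p = 0.0368, lost in 8 of 19 other settings), AT5G06670 at 1.19 ± 0.27 (0.00478), AT5G02540 at 1.15 ± 0.29 (0.00778), GH9B6 at 1.09 ± 0.32 (0.0157) and UNG at 0.93 ± 0.17 (0.0015) were higher in petal than in cotyledon too. Lower in petal were AT5G47060 at -1.52 ± 0.16 (4e-05), AT2G23060 at -1.31 ± 0.36 (0.012) and AT2G05330 at -0.95 ± 0.32 (0.0307, lost in 5 of 19 other settings). AT5G47060 and AT2G05330 were the members that passed as higher in cotyledon against both other organs. AT2G05330 also lost its cotyledon minus root call in 1 of 19 other settings, the one without root replicate 3. AT5G47060 kept both calls in all 19. AT5G47060 stood at 4.03, 3.3, 3.78 and 3.18 in cotyledon against 2.53, 2.35, 2.18 and 1.83 in root and 2.33, 1.68, 2.42 and 1.81 in petal.

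In 33 members none of the 3 differences passed, which does not show that the organs were alike. For AT1G51010 the 95% interval of petal minus root ran from -0.36 to 1.35 and that of cotyledon minus root from -1.04 to 0.67. AT5G51470, AT1G49475 and AT5G53420 were called in all 3 comparisons. AT1G49475, picked after its values were seen, had means of 2.77 ± 0.19 in root, 3.63 ± 0.45 in cotyledon and 4.51 ± 0.55 in petal. AT5G51470 lost its calls against cotyledon in 12 (root) and 7 (petal) of 19 other settings. AT5G53420 lost its cotyledon minus root call in 4 of 19 and kept its other calls in all 19. In all, 16 members differed from root in both petal and cotyledon.

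**Figure D4:**
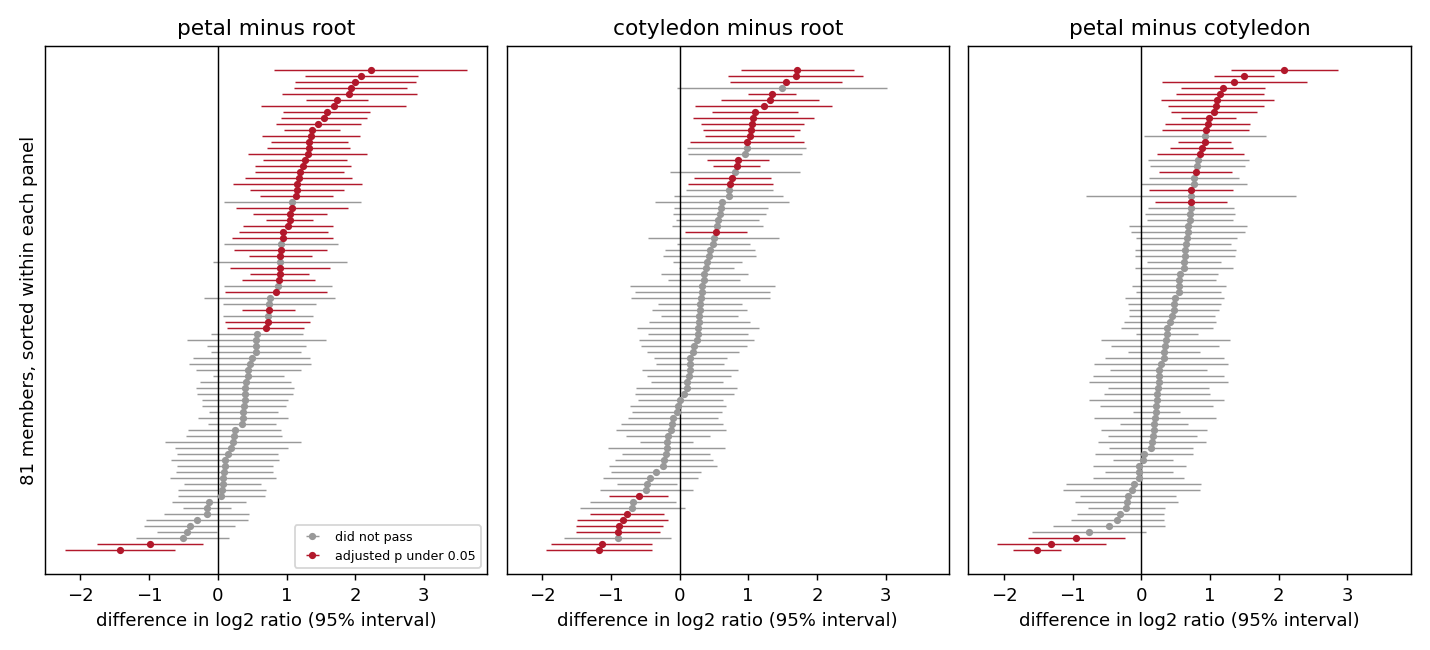
Difference in log2 ratio between organs (horizontal axis, with its 95% interval) for the 81 members, sorted within each panel, with red for an adjusted p under 0.05. Petal minus root passes upward in 37 members and downward in 2, and the other panels have 17 upward each and 7 and 3 downward.

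The dye of the callus RNA moved with the size of the members' ratios in cotyledon and petal. In petal, 75 of 81 members had a higher mean with callus in Cy5 than in Cy3, beside 45.3% of all genes, and the median difference was 0.69. In cotyledon the count was 71 (beside 43.2% of all genes) and the median difference 0.49, and in root it was 39 (beside 46.3%) with a median of -0.02. Cotyledon replicate 1 had the highest member median of its organ, 3.53 against 2.4 to 2.69 on the other cotyledon arrays, and petal replicate 1 had the highest of petal, 3.88 against 2.80 to 3.36. Both arrays had callus in Cy5.

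The dye term of the fit, which compares orientations within organs and so was not used by the rule where all 4 arrays measured a gene, passed upward in 2 members (2.47%, beside 2.03% of all genes) and downward in 0 (beside 1.59%, with 3.62% called in either direction). At an unadjusted p under 0.05 limma gave 22 upward and 1 downward, beside 9.01% and 12.5% of all genes. The calls were AT4G26460, with a fitted difference of Cy5 over Cy3 of 1.46 ± 0.28 (SE, limma adjusted p = 0.0252), and AT5G10040, with 1.24 ± 0.27 (0.0364). AT4G26460 gave 4.08 and 5.32 on the Cy5 arrays of root against 3.26 and 2.86 on the Cy3 arrays, 4.31 and 3.23 against 2.60 and 2.65 in cotyledon, and 5.24 and 4.28 against 3.5 and 2.81 in petal. The orientations did not overlap in any organ, and even its lowest value was above 2. Leaving out single arrays moved the count of dye calls between 0 and 5. The part of the dye in the organ differences beyond the fitted term was not tested.

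**Figure D5:**
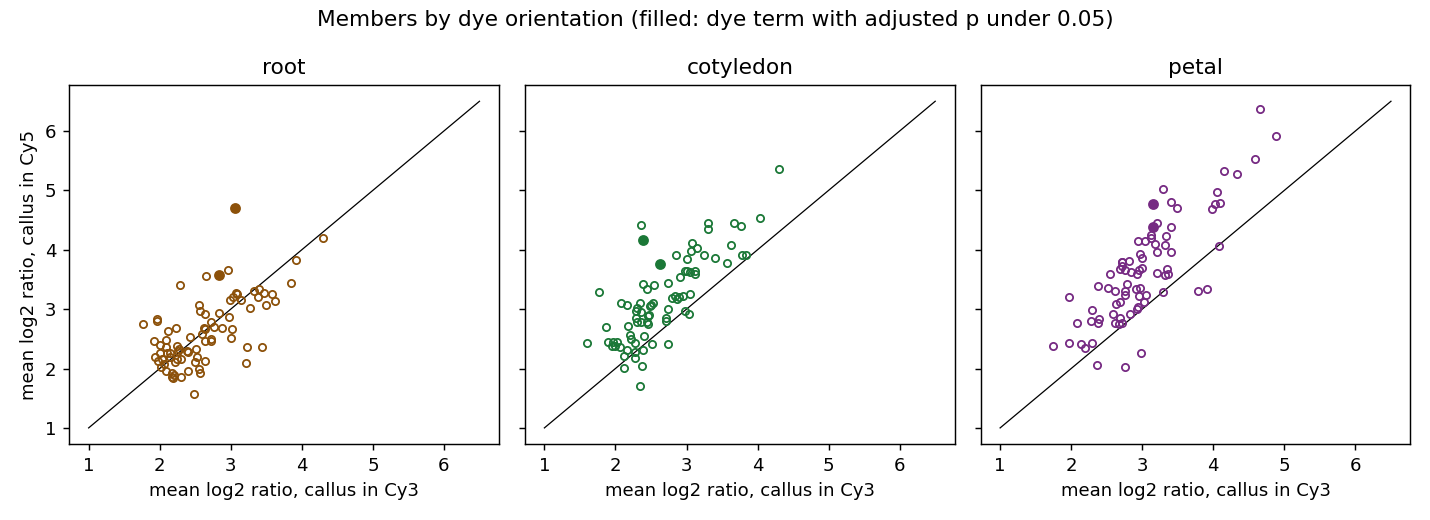
Mean log2 ratio of each member on the arrays with callus in Cy5 (vertical axis) against those with callus in Cy3 (horizontal axis) in root, cotyledon and petal, with a line of equality and filled points for AT4G26460 and AT5G10040. In cotyledon and petal 71 and 75 of 81 points lie above the line, and in root 39.

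Genes that lie next to a member on the chromosome were examined as a measure the rule did not use. Of the 79 members in the RefSeq table, 63 adjacent protein-coding genes were measured, and 0 of them were members. As only 0.897% of all genes met the rule, a count of 0 among 63 cannot show whether members lie apart. AT3G60660, itself no member, adjoins members on both sides, AT3G60650 and AT3G60670. Of the 63 neighbours 12 (19%) were higher in all 3 calli and 4 (6.35%) lower, beside 23% and 11% of all genes (limma, adjusted p under 0.05 in each organ). Their median ratios were 0.42 in root, 0.26 in cotyledon and 0.14 in petal, against 0.18, 0.13 and 0.18 over all genes. Among the neighbours higher in all 3 organs were AT1G53060 beside AT1G53070, at 2.4 ± 0.40, 1.33 ± 0.51 and 2.39 ± 0.34, and AT3G56780 beside AT3G56770, at 1.92 ± 1.07, 1.87 ± 0.13 and 2.34 ± 0.54, both picked after their values were seen. Neighbours that ran against their member were AT1G49470 beside AT1G49475, at -2.66 ± 0.92, -2.24 ± 0.30 and -2.77 ± 1.16, AT1G68440 beside AT1G68430, at -2.51 ± 0.65, -2.65 ± 0.40 and -2.13 ± 0.59, LEA18 beside REM23, at -1.90 ± 0.76, -2.52 ± 0.73 and -3.14 ± 2.19, and, by small amounts, AT1G22040 beside AT1G22030.

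The members were also set beside lists of genes known from callus and root biology, chosen with earlier results of these data known. The lists were matched by RefSeq symbol or synonym, and none of the 81 is in them on that match. Listed genes that met the rule had been set aside by name, so this absence was built in and says nothing about the members. Of the wound and callus regulators on the lists, 0 were measured. Of the embryo regulators 1 was measured, EEL, which met the rule and was set aside. A member known by its locus code alone may still belong to a listed gene family. Beside each count stand the shares of all genes, 39.9% higher and 23% lower in root, 40.7% and 30.3% in cotyledon, and 45.3% and 33.4% in petal. Of 10 measured auxin-response genes, 6 were higher and 0 lower in root, 6 and 2 in cotyledon and 8 and 2 in petal. Of 5 root and lateral root regulators, 2 were higher and 1 lower in root, 4 and 0 in cotyledon and 2 and 2 in petal. GH3.3 and IAA30 in the auxin list and BBM in the root list met the rule themselves and were set aside, so these 3 had to be high in every organ. Photosynthesis genes, listed as markers of green tissue, moved the other way, with all 9 lower in root and petal and 8 of 9 lower in cotyledon. Their medians were -1.65 in root, -3.10 in cotyledon and -3.3 in petal, so the fall was not confined to cotyledon. Their SDs in cotyledon reached 2.53 (LHB1B2). What the fall marks in each organ was not tested. Of the root hair genes 2 were measured and of the petal genes 1, none of which passed as lower in any organ. The root hair gene EXPA7 passed as higher in cotyledon, at 1.75 ± 0.39, and in petal, at 1.72 ± 0.26. EXPA18 and the petal gene RBE passed in neither direction. The part of these markers in the members' ratios was not tested. The arrays give ratios and no levels, so whether a marker is absent from a tissue cannot be read from them.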

How the data were processed

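The data were 12 arrays of 2 colours, 4 per organ. The authors deposited 1 table of log2 ratios per probe. That the scale is log2 was read from the limits at 6.64 and -6.64, the log2 of 100. How background was corrected and arrays were normalized, centred and oriented is not given in the sources used.

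Values at or beyond the limits were set missing and probes averaged per gene, of 13960 probes with 1 gene each in the platform table (13912 matched in RefSeq). No arrays were identical. With limma 3.58.1 in R 4.3.3, log2 ratios of 9695 genes were fitted on organ and dye (+1 or -1), and organ differences and the dye term were tested with Benjamini-Hochberg adjustment over all genes at 0.05. The fit was tested on simulated data. No arrays were dropped; where a value was missing, the gene was fitted without it. The number of arrays limits the precision.

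The members and gene lists were chosen with earlier results of these data known. Named were members with a RefSeq name, the 10 with the highest lowest organ mean, up to 5 per organ difference and direction, and 3 genes on each side of the threshold. Same-numbered arrays of cotyledon and petal deviated together (r from 0.18 to 0.29), which fell to between -0.04 and 0.06 with the dye taken out. Root and petal gave r of -0.02, 0.25, 0.30 and 0.27 in replicates 1 to 4, and 0.07 to 0.27 with the dye taken out. Root and cotyledon gave -0.01 to 0.23, and -0.16 to 0.03 with the dye taken out. Alternatives left out each array, kept limited values, changed the filter, centring and threshold, removed the dye term, or used a replicate block. Promoter motifs and protein likeness, which had been planned, were not analysed here.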

Additional observations from a re-analysis of the deposited data

Results flagged for a closer look

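In 5 of 106 groups of 4 arrays among the 36 named members, 1 array stood apart from the rest, and chance alone marks about 1 in 20 groups. AT1G51010 read 5.06 on cotyledon replicate 1, against 3.58 to 3.83 on the other cotyledon arrays. On the same array AT4G10260 read 4.32 (others 2.94 to 3.12) and AT5G48650 read 4.99 (others 2.97 to 3.23). AT2G04020 was low on replicate 3 in both cotyledon, at 1.73 (others 2.35 to 2.39), and petal, at 1.42 (others 2.63 to 2.79). Its root replicate 3, at 2.37, was also the lowest of its organ.

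Organ differences in log2 ratio that passed limma's test were also collected. Petal minus root was 2.23 for AT3G29970, 2.09 for AT5G51470, 2.00 for AT1G72490, 1.93 for AT2G19970, 1.91 for AT3G43180, -1.43 for AT2G23060 and -0.99 for AT2G04020. Cotyledon minus root was 1.72 for AT2G19970, 1.69 for AT3G43180, 1.54 for AT5G48650, 1.35 for AT5G47060 and 1.32 for AT1G10400. It was -1.17 for AT2G04020, -1.13 for ZW2, -0.89 for AT1G26680, -0.88 for AT1G26540 and -0.83 for AT4G18690. Petal minus cotyledon was 2.08 for AT1G12130, 1.49 for AT5G53420, 1.35 for AT4G37290, 1.19 for AT5G06670, 1.15 for AT5G02540, -1.52 for AT5G47060, -1.31 for AT2G23060 and -0.95 for AT2G05330.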

How the results depend on the processing

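The number of members, 81, became 193 with a threshold of 1.5 and 30 with 2.5, and ranged from 72 to 87 with single arrays left out. Centring left 57. Leaving out single arrays gave 32 to 43 calls for petal minus root (39 with all arrays), 15 to 27 for cotyledon minus root (24; 15 without root replicate 4) and 13 to 31 for petal minus cotyledon (20; 31 without cotyledon replicate 1 and 13 without petal replicate 1). With the replicate number as a block, which contains the dye term, the counts were 45, 27 and 27. The 2 dye calls became 6 with limited values kept, 6 over genes measured on all 12 arrays and 1 with no filter. Single arrays left out gave 0 to 5: 5 without root replicate 2, 1 without petal replicate 1, and 0 without root replicate 3 or 4, cotyledon replicate 1, 2 or 4, or petal replicate 2 or 4. Of 48 called differences of named members, 30 kept their call in every alternative run and 18 lost it in at least 1, and 0 changed direction. The causes were not tested. Array ratios carry no depth, and signal over background could not be judged from the table.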

Other observations

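Of 8287 measured probes to which the platform table gives no gene, 51 also had a mean log2 ratio of 2 or more in root, cotyledon and petal. They are not named here. At the other end, 101 of the 9695 genes had a mean of -2 or less in all 3 organs.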
